A study of Mus musculus with 2 samples.

Results

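The translation initiation factors examined here are the genes whose symbol starts with Eif followed by a digit from 1 to 6, leaving out the interferon-induced kinase gene Eif2ak2 and the Y-linked Eif2s3y. This rule found 53 of the 16218 genes with a symbol, and it reads the symbol only. RNA came from bone marrow-derived macrophages of C57BL/6J mice, grown for 5 days with L929 supernatant as a source of macrophage colony-stimulating factor and exposed to 10 ng/ml LPS, a bacterial cell wall component, for 3 h. The WT library carried Lyz2-Cre, a Cre recombinase active in the myeloid lineage. The TKO library had the same Cre, germline deletions of mir-106a~363 and mir-106b~25, and floxed mir-17~92, so that the last cluster is lost only where Lyz2-Cre acted. Each genotype had 1 library, polyadenylated RNA only, and no unstimulated cells were analysed here. Every difference below therefore compares 2 libraries and has no replicate check, and in bulk RNA a change in the number of cells cannot be told apart from a change in RNA per cell.

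Initiation brings the small ribosomal subunit, the initiator methionine tRNA and the messenger RNA together. eIF2 carries the tRNA as a complex with GTP, eIF2B reloads eIF2 with GTP, and eIF1, eIF1A, eIF3 and eIF5 assemble with it on the small subunit. eIF4E binds the 5' cap, the scaffold eIF4G joins it to the helicase eIF4A as eIF4F, and eIF5B brings in the large subunit. In macrophages stimulated through Toll-like receptors, cap-dependent initiation is tuned by mTORC1, which phosphorylates the eIF4E inhibitors called 4E-BPs, and by kinases that phosphorylate eIF2 and so block eIF2B.

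Total rounded counts were 10764519 in WT and 10836855 in TKO. All 10 macrophage markers examined were measured, and their summed level was 7880 CPM (counts scaled to a library total of 1000000) in WT and 8132 CPM in TKO. Markers of other cells were low or uneven: stromal markers summed to 397 and 155 CPM, dendritic cell markers to 36.4 and 197 CPM, of which Itgax, an integrin gene that macrophages can also express, made up 27.0 and 186 CPM and the other 4 genes 9.38 and 10.7 CPM, and neutrophil, T cell and B cell markers to at most 9.38 CPM per list, with Cd3e, Cd3g and Pax5 not listed and Ly6g at 0 in WT. The 6 proliferation markers were all lower in TKO, summing to 1964 and 1692 CPM. Their part in the differences below was not tested.

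Transcripts of the initiation machinery were present in nearly equal amounts in both genotypes. All members together took 97314 counts in WT, 0.904% of the library, and 97277 in TKO, 0.898%, a TKO to WT ratio of 0.993 with a 95% counting interval of 0.984 to 1.00. Of the 53 members, 52 reached a mean of 1 CPM and were treated as measured. The exception was Eif4e1b, the relative of eIF4E known from oocytes, with 2 counts in each library. Eif3j2 reached 1 CPM only through its TKO counts and is described apart from the other 51. Among those 51, 43 lay within 1.2-fold of equality, or 84.3%, against 62.9% of all 11662 measured genes and 74.0% of those with a mean of at least 10 CPM.

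Calls at a fixed fold required a CPM ratio at or beyond that fold and a counting interval that excluded equality. At 1.5-fold, 0 of the 51 were higher and 0 lower in TKO, where 2.98% of all measured genes were higher and 5.6% lower. At 1.2-fold, Eif3a and Eif2ak3 were higher (background 8.22%) and Eif1ad, Eif2a, Eif2b1, Eif4ebp1 and Eif5a were lower (background 13.6%). With any fold, the interval lay above equality for 6 of the 51 (background 14.1%) and below it for 17 (background 20.2%). This split rests on the scaling: over the 52 measured members it was 7 above and 17 below with total counts, and 12 above and 10 below with TMM, a scaling that adds 0.0480 to the log2 of every CPM ratio before the pseudocount. The median log2 ratio, taken as log2 of (TKO CPM + 0.5) over (WT CPM + 0.5), was −0.10 for the 51 members and −0.04 for all measured genes. Abundant genes are counted more precisely, so the calls were repeated on the 49 members and 7935 genes that averaged 10 CPM or more. At 1.5-fold, 0 of the 49 were higher (background 2.17%) and 0 lower (background 3.24%). At 1.2-fold, 2 were higher (background 9.5%) and 5 lower (background 14.1%), and the interval lay above equality for 6 (background 18.2%) and below it for 17 (background 23.8%). Of these 49 members, 32 had a log2 ratio below 0, against 55.8% of the genes.

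**Figure D1:**
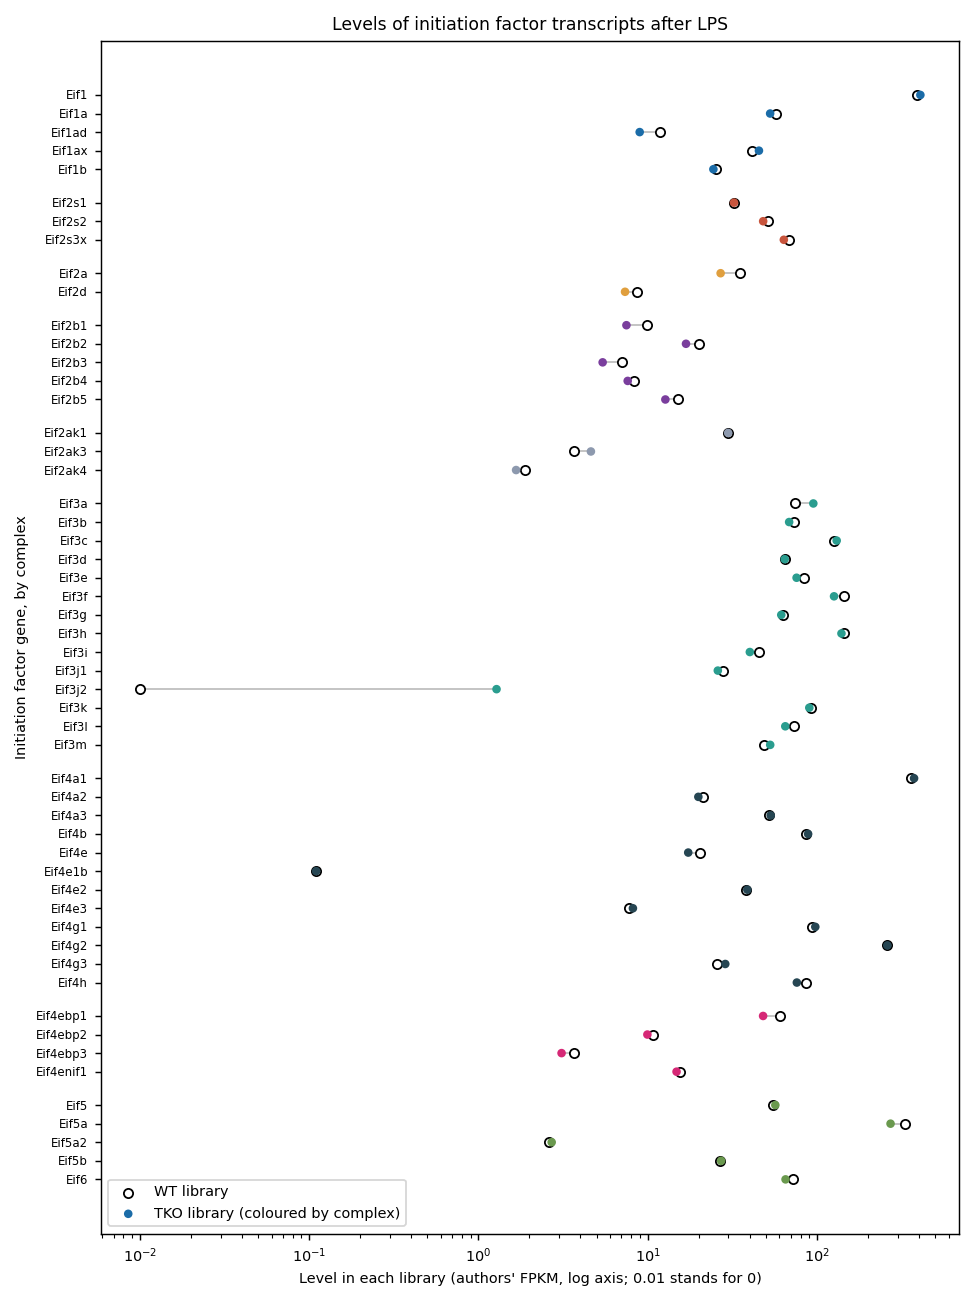
Level of each of the 53 initiation factor genes as the authors' FPKM on a log axis, with open circles for the WT library and filled circles for the TKO library, grouped by complex. The pairs nearly coincide for most genes, from Eif1 at 392 and 408 FPKM down to Eif4e1b at 0.11 FPKM in each library, and Eif3j2 shows a wide gap because its WT value of 0 is drawn at 0.01.

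Levels between genes were compared on the authors' FPKM, which divides by gene length. The 51 members had a median of 45.5 FPKM in WT and 45.4 FPKM in TKO, and the Pearson correlation of their log2 FPKM between the libraries was 0.996, a description over genes that share both libraries. Eif1 was the highest member in each library, at 392 and 408 FPKM, followed in WT by Eif4a1 (358 FPKM), Eif5a (333 FPKM) and Eif4g2 (258 FPKM). In raw counts, 10 members made up 63.2% of the WT total of the group and 65.1% of the TKO total.

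The factors that scan for the start codon came first. Eif1, whose protein guards start codon choice, had 5331 counts in WT and 5586 in TKO, a ratio of 1.04 (1.00 to 1.08). Its close relative Eif1b, 81.1% identical in coding sequence, had 245 and 237 counts and lay at 25.4 and 24.4 FPKM. Eif1 was therefore 15.4 times Eif1b per unit length in WT and 16.7 times in TKO. eIF1A is encoded by Eif1a and the X-linked Eif1ax. Eif1a had 1771 and 1656 counts, 1.08-fold lower (1.01 to 1.15), and Eif1ax 403 and 445 counts, a ratio of 1.10 (0.956 to 1.26). Summed over both genes the ratio was 0.960 (0.904 to 1.02). Eif1ad (chr19, 5366813 to 5371518) encodes a nuclear protein with an eIF1A-like domain. Eif1ad and the eIF2B gene Eif2b1 had the lowest values of the 51, with log2 ratios of −0.40 each. Eif1ad had 316 and 240 counts and 11.9 and 8.97 FPKM, 1.33-fold lower in TKO (1.12 to 1.57). Its exons share 428 bases with Banf1 on the other strand, a gene with 430 and 373 counts, and the sources used here do not give the strand setting of the counting.

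The 3 eIF2 subunits, which hold the initiator tRNA, stayed close to equality. Eif2s1, which encodes the alpha subunit phosphorylated under stress, had 1098 and 1110 counts, a ratio of 1.00 (0.923 to 1.09), at 32.2 and 32.4 FPKM. Eif2s2, for the beta subunit, had 1398 and 1312 counts, 1.07-fold lower (0.994 to 1.16). Eif2s3x, for the GTP-binding gamma subunit, had 2654 and 2492 counts, 1.07-fold lower (1.01 to 1.13), and was the highest of the 3 at 68.3 and 63.7 FPKM. The highest subunit was thus 2.12 times the lowest per unit length in WT and 1.97 times in TKO.

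Genes for eIF2B, the exchange factor that recycles eIF2, all had lower values in TKO. With total counts, the counting interval excluded equality for 3 of the 5. All 5 had log2 ratios below 0, from −0.40 to −0.11, with a median of −0.25, and all 5 stayed below 0 with TMM, with DESeq2 size factors and with FPKM. In comparison, 57.4% of all measured genes were below 0, and 20.2% had an interval below equality. Among genes averaging 10 CPM or more, that interval share was 23.8%. The count of intervals, unlike the sign, depends on the scaling. Over the 52 measured members, 17 intervals lay below equality with total counts and 10 with TMM. Eif2b1, for the alpha subunit (chr5, 124570214 to 124579131), had 215 and 163 counts, 1.33-fold lower (1.08 to 1.64). Eif2b5, for the catalytic epsilon subunit, had 419 and 353 counts, 1.19-fold lower (1.03 to 1.38), and Eif2b2, for the beta subunit, had 345 and 291 counts, also 1.19-fold lower (1.02 to 1.40). The intervals of Eif2b3, with 126 and 97 counts, and Eif2b4, with 155 and 144 counts, included equality. Summed over the complex, 1260 counts in WT stood against 1048 in TKO, 1.21-fold lower (1.11 to 1.32). These are low transcripts beside their substrate: eIF2B subunits ranged from 7.10 to 20.1 FPKM in WT and from 5.42 to 16.8 FPKM in TKO. Eif2s1 was 1.60 times Eif2b2, the highest eIF2B gene, in WT and 1.92 times in TKO.

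The eIF2 kinases, which share a substrate and answer different stresses, did not move as a group. Eif2ak3, which encodes the endoplasmic reticulum stress sensor PERK (chr6, 70844484 to 70905241), had 181 and 228 counts, a ratio of 1.25 (1.03 to 1.53), and no longer met the 1.2-fold call with a 99% interval. Eif2ak1, which encodes the heme-regulated kinase, had 905 and 911 counts, a ratio of 1.00 (0.911 to 1.10), and its log2 ratio changes sign with TMM. Eif2ak4, which encodes the amino acid sensor GCN2, had 107 and 93 counts, 1.16-fold lower (0.869 to 1.55). Eif2ak1 was the highest kinase at 29.9 FPKM in each library, against 3.69 and 4.62 FPKM for Eif2ak3 and 1.89 and 1.67 FPKM for Eif2ak4.

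Beside eIF2, Eif2a and Eif2d encode single proteins able to deliver initiator tRNA by other routes. Eif2a (chr3, 58525821 to 58557501) had 879 and 679 counts and 35.1 and 27.0 FPKM, 1.30-fold lower in TKO (1.18 to 1.44). It shares 72 exon bases with Serp1 on the other strand, which had 4656 and 4113 counts. Eif2d had 185 and 157 counts, 1.19-fold lower (0.954 to 1.48), so its difference was not detectable at this depth.

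**Figure D2:**
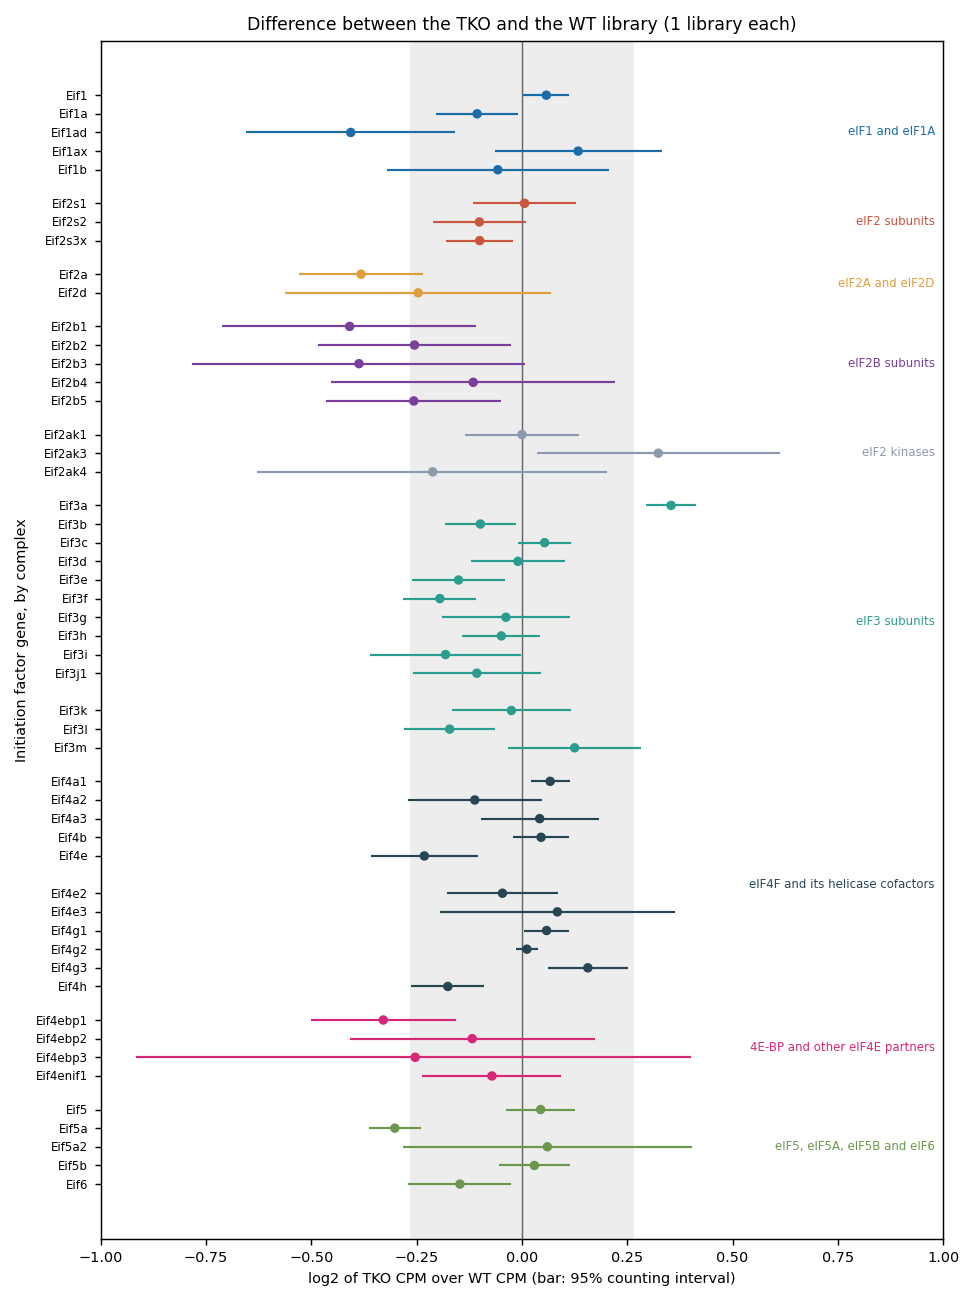
Log2 of the TKO to WT CPM ratio of each initiation factor gene (points) with its 95% counting interval (bars), grouped by complex, and a grey band for differences under 1.2-fold. Most points lie in the band, all 5 eIF2B subunits lie left of 0, and Eif3a and Eif2ak3 lie to the right of the band. Eif3j2, at 0 counts in WT, and Eif4e1b, with 2 counts in each library, are not drawn.

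eIF3, the largest initiation factor and the platform on the small subunit, had 1 subunit apart from the others. Eif3a, which encodes the large core subunit (chr19, 60761116 to 60790693), had 4187 and 5387 counts and 74.4 and 95.2 FPKM. It was 1.28-fold higher in TKO (1.23 to 1.33), the highest log2 ratio of the 51 members at 0.35. No other subunit with counts in both libraries was called higher at 1.2-fold. Of the 13 subunit genes apart from Eif3j2, 10 were below 0 with total counts, against 57.4% of all measured genes. This excess depends on the scaling, since Eif3d, Eif3g and Eif3k among these 10 turn positive with TMM. With total counts, 5 had an interval below equality: Eif3b, Eif3e, Eif3f, Eif3i and Eif3l. The background for this was 20.2% of all measured genes and 23.8% of those averaging 10 CPM or more. With TMM, intervals below equality fell from 17 to 10 over the 52 measured members. Eif3f was the lowest, with 2323 and 2043 counts, 1.14-fold lower (1.08 to 1.22), and it was also the highest eIF3 gene in WT at 144.3 FPKM. Eif3l had 1487 and 1329 counts, 1.13-fold lower (1.05 to 1.21), and Eif3e 1385 and 1256 counts, 1.11-fold lower (1.03 to 1.199). Eif3b had 2351 and 2210 counts, 1.07-fold lower (1.01 to 1.14). Eif3i had 543 and 482 counts, 1.13-fold lower (1.00 to 1.28).

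The rest of eIF3 lay close to equality. Eif3c had 3942 and 4119 counts, a ratio of 1.04 (0.993 to 1.09), Eif3m 634 and 696 counts, a ratio of 1.09 (0.978 to 1.22), and Eif3h 1923 and 1871 counts, 1.03-fold lower (0.970 to 1.10). Eif3d, Eif3g and Eif3k were within 1.03-fold, and their log2 ratios of −0.01, −0.04 and −0.03 turn positive with TMM. Leaving out both Eif3j genes, the 12 remaining subunits ranged from 45.5 to 144.3 FPKM in WT, a spread of 3.17 times, and from 40.1 to 139.5 FPKM in TKO, 3.48 times. The Eif3a level relative to Eif3d, the subunit nearest equality by counts, was 1.15 in WT and 1.48 in TKO.

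Eif3j2 is a near copy of Eif3j1, and its values depend on how reads were divided. The coding sequences are 99.2% identical, with 781 identical bases in an unbroken run. Eif3j1 spans 25053 bases on chromosome 2, while Eif3j2 (chr18, 43475418 to 43477836) spans 2419 bases, the same as its transcript length in the deposited table, so that it has no introns. The deposited estimates were 733 counts in WT and 685.49 in TKO for Eif3j1, and 0 and 33.51 for Eif3j2. After rounding, Eif3j2 had 0 counts in WT and 34 in TKO, and the lower bound of its counting interval was a TKO to WT ratio of 8.67. With 3 counts taken as the floor for a library at 0, the ratio was 11.3, a value set by that choice of floor. The summed count of the pair was 733 and 719, a ratio of 0.974 (0.878 to 1.08). The eIF3 protein encoded by this pair, the loosely bound subunit eIF3j, thus had summed transcript counts that did not differ beyond counting error.

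The genes grouped here under the cap-binding complex eIF4F, with its helicase cofactors, made up the largest share of counts. They had 46058 counts in WT and 46963 in TKO, a ratio of 1.01 (1.00 to 1.03). The group also holds relatives outside eIF4F, such as Eif4g2 and Eif4a3, so these sums do not describe the complex alone. Of the 11 measured genes of the group, 0 were called at 1.2-fold, where 8.22% of all measured genes were higher and 13.6% lower. With total counts, 7 were above 0 and 4 below, where 57.4% of all measured genes were below 0. Eif4e2, among these 4, turns positive with TMM. Eif4g2, which encodes the eIF4G relative DAP5 that lacks the eIF4E-binding part, had more counts than any other member, 21820 and 22145, a ratio of 1.01 (0.989 to 1.03). Eif4g1 had 5551 and 5819 counts, a ratio of 1.04 (1.00 to 1.08), and Eif4g3 1731 and 1942 counts, a ratio of 1.11 (1.04 to 1.19). All 3 were above 0 with total counts and with FPKM, where 4967 of 11662 measured genes were above 0 with total counts. TMM and DESeq2 size factors raise every ratio, so genes above 0 with total counts stay above 0 by construction. Per unit length Eif4g2 was 2.75 times Eif4g1 in WT and 2.67 times in TKO.

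The cap-binding protein gene itself was lower. Eif4e had 1107 and 949 counts and 20.4 and 17.4 FPKM, 1.17-fold lower in TKO (1.08 to 1.28), the lowest log2 ratio of this group at −0.23. Its relatives were near equality. Eif4e2, for the translational repressor 4EHP, had 954 and 930 counts, a ratio of 0.968 (0.884 to 1.06), and its direction turns on FPKM, at 38.3 and 38.8. Eif4e3 had 209 and 223 counts, a ratio of 1.06 (0.874 to 1.29). Eif4e2 was 1.88 times Eif4e per unit length in WT and 2.23 times in TKO.

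Among the helicases, Eif4a1, the main eIF4A gene, had 7282 and 7678 counts, a ratio of 1.05 (1.01 to 1.08), and led the group at 358 and 375 FPKM. Eif4a2, 77.8% identical to it in coding sequence, had 671 and 625 counts, 1.08-fold lower (0.968 to 1.21). Eif4a1 stood at 16.8 times Eif4a2 per unit length in WT and 18.8 times in TKO. Eif4a3, whose protein belongs to the exon junction complex rather than eIF4F, had 823 and 853 counts, a ratio of 1.03 (0.934 to 1.13). Of the cofactors that stimulate eIF4A, Eif4b had 3605 and 3745 counts, a ratio of 1.03 (0.986 to 1.08), and Eif4h had 2303 and 2052 counts, 1.13-fold lower (1.06 to 1.1997).

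Of the eIF4E inhibitors, 1 was lower beyond its interval. Eif4ebp1, for 4E-BP1, the mTORC1 substrate that blocks eIF4E from eIF4G (chr8, 27260327 to 27275656), had 624 and 500 counts and 60.4 and 48.1 FPKM, 1.26-fold lower in TKO (1.12 to 1.42). Eif4ebp2 had 207 and 192 counts, 1.09-fold lower (0.888 to 1.33), and Eif4ebp3 45 and 38 counts, 1.19-fold lower (0.757 to 1.89), neither beyond counting error. Eif4enif1, for the eIF4E transporter that takes eIF4E to the nucleus and to P-bodies, had 620 and 594 counts, 1.05-fold lower (0.937 to 1.18). All 4 were below 0 under every scaling tried, and 57.4% of all measured genes were below 0 with total counts. The 3 inhibitors together had 876 and 730 counts, 1.21-fold lower (1.09 to 1.33). Of these counts, Eif4ebp1 alone made up 624 and 500. Because Eif4ebp1 and Eif4e were both lower, their ratio per unit length was 2.96 in WT and 2.77 in TKO.

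The late-acting factors were split by Eif5a. Eif5a (chr11, 69916712 to 69921958), for the hypusine-bearing protein that helps ribosomes through difficult peptide bonds in elongation and termination, had 4722 and 3856 counts and 333 and 272 FPKM. It was 1.23-fold lower in TKO (1.18 to 1.29), but under the 1.2-fold call with TMM. Eif5a2, 72.7% identical in coding sequence, had 141 and 148 counts, a ratio of 1.04 (0.822 to 1.32). Eif5a was 128 times Eif5a2 per unit length in WT and 100.4 times in TKO. Eif5, for the GTPase activator of eIF2, had 2367 and 2457 counts, a ratio of 1.03 (0.974 to 1.09), and Eif5b, for the GTPase that joins the subunits, 2260 and 2322 counts, a ratio of 1.02 (0.963 to 1.08). Eif6, for the protein that keeps the large subunit from joining too early, had 1153 and 1048 counts, 1.11-fold lower (1.02 to 1.21).

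The authors' deposited table compares the same 2 libraries and gives its own adjusted value. At an adjusted value of at most 0.05 it marked 3 of the 51 members as higher in TKO (10.5% of measured genes) and 10 as lower (14.7%). The smallest adjusted values in the authors' deposited table were 4.79e-31 for Eif3a and 2.01e-20 for Eif5a. Such a value compares these libraries, not the genotypes.

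The sign of a member's difference went with its length. Of the 9 members of 4000 bases or more, 7 had log2 ratios above 0, with a median of 0.06. Of the 23 members under 2000 bases, 18 were below 0, with a median of −0.12, and of the 19 in between, 14 were below 0. The same order held over all measured genes at a smaller size: 50.3% were below 0 at 4000 bases or more, 57.6% in between and 64.2% under 2000 bases. Spearman's rho between length and log2 ratio was 0.283 over the 51 members and 0.109 over the 11662 measured genes, where all points share the same 2 libraries. The longest genes higher in TKO included Eif3a, Eif4g1, Eif4g3 and Eif2ak3, and Eif4e and Eif2ak4 were the exceptions of this length class.

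**Figure D3:**
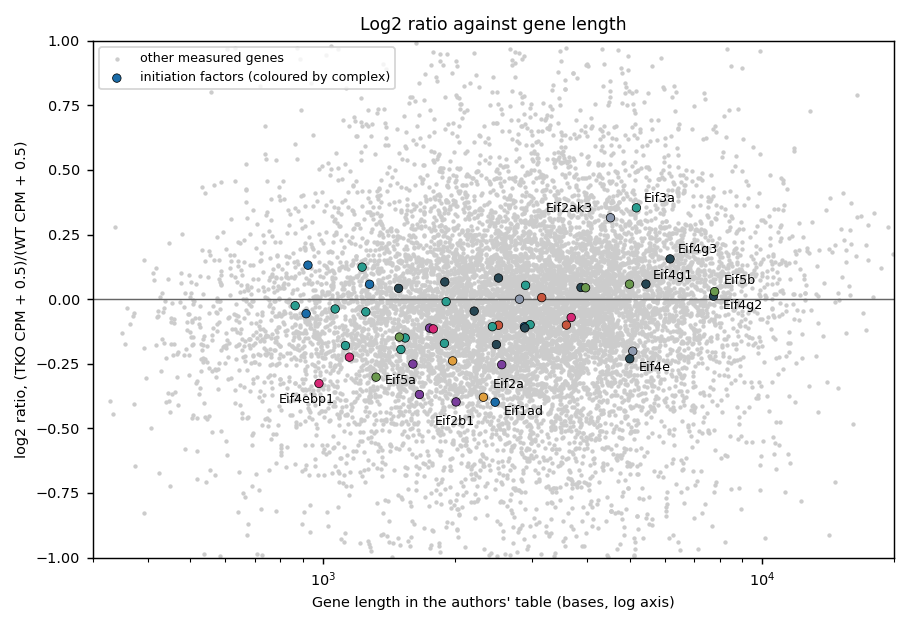
Log2 ratio against gene length on a log axis for the 51 initiation factor genes (coloured by complex) and other measured genes (grey), where genes outside the plotted range are not drawn. Members of 4000 bases or more lie mostly above 0 and shorter ones mostly below it.

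Genes that work with the initiation factors were examined in 7 lists. Of 18 genes of mTORC1, 4E-BP and S6 kinase signalling, 2 were at least 1.2-fold higher and 2 lower, with a median log2 ratio of −0.05. Over all measured genes 8.22% were called higher and 13.6% lower, so the shares in this list were near the background. Tsc1, for a subunit of the complex that restrains mTORC1, had 346 and 471 counts, a ratio of 1.35 (1.17 to 1.56). On the lower side, Ddit4, for the stress-induced mTORC1 inhibitor REDD1, had 35 and 14 counts, 2.52-fold lower (1.32 to 5.06). Rptor, which encodes the substrate-binding subunit of mTORC1, was the other gene called lower, with 789 and 628 counts, 1.26-fold lower (1.14 to 1.41), and Deptor the other called higher, with 145 and 183 counts. Rptor and Deptor were picked with their values in view. Of 14 cap and poly(A) partners, Ddx6, for the P-body helicase that represses and stores messenger RNA, was higher with 2600 and 3391 counts, a ratio of 1.30 (1.23 to 1.36), and 0 were lower by 1.2-fold, with a median of −0.06.

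The integrated stress response, which acts through eIF2 phosphorylation, had log2 ratios from −0.56 to 0.93. Of its 11 measured genes, 3 were at least 1.2-fold higher (background 8.22%) and 1 lower (background 13.6%), with a median of −0.08. Ddit3, for the transcription factor CHOP, had 94 and 185 counts, a ratio of 1.95 (1.52 to 2.53). The genes for the phosphatase subunits that reverse eIF2 phosphorylation differed in opposite directions. The stress-induced Ppp1r15a had 1245 and 1914 counts, a ratio of 1.53 (1.42 to 1.64), while the constitutive Ppp1r15b had 3696 and 3005 counts, 1.24-fold lower (1.18 to 1.30). Atf4, the transcription factor translated when eIF2 is phosphorylated, had 1962 and 1808 counts, 1.09-fold lower (1.02 to 1.17). Impact, whose protein inhibits GCN2, was the remaining gene called higher, with 166 and 246 counts. Ppp1r15a, Atf4 and Impact were picked with their values in view.

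Elongation, termination, recycling and mitochondrial initiation factors held 0 genes called at 1.2-fold in either direction, among 8, 3, 3 and 2 measured genes. Over all measured genes 8.22% were called higher and 13.6% lower, so 0 calls in lists this short do not set them apart. The median log2 ratio was −0.06 for elongation factors, where Eef1a1, which delivers aminoacyl-tRNA, had 69072 and 65343 counts, 1.06-fold lower (1.05 to 1.08). It was −0.13 for recycling factors, 0.10 for termination factors and −0.11 for mitochondrial initiation factors. Eef1a1 was picked with its values in view, as the most abundant of these genes. Gspt2, with 9 and 19 counts, lay farthest from 0 among them, but its interval included equality (ratio 2.10, 0.904 to 5.26).

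**Figure D4:**
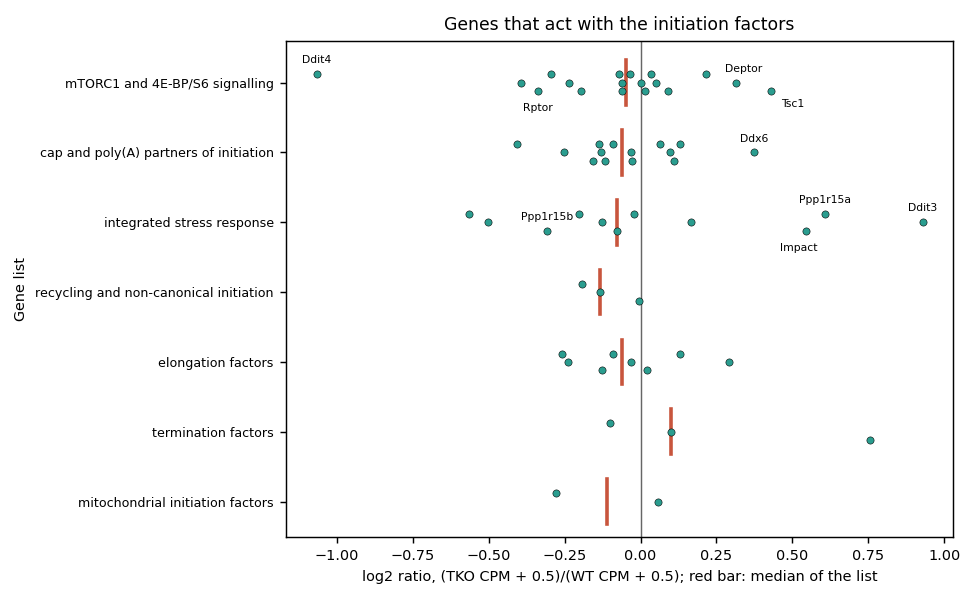
Log2 ratio of each measured gene (points) in 7 lists of genes that act with the initiation factors, with a red bar at each list's median. The genes called at 1.2-fold are named, with Ddit3 farthest right and Ddit4 farthest left, while every list's median lies within 0.14 of 0.

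The deleted clusters encode 4 seed families, shown here because these are the microRNAs the TKO cells are designed to lack. A microRNA's seed, bases 2 to 8 from its 5' end, pairs with a 7-base site in the 3' UTR. Mature sequences are from RefSeq (GRCm38.p6), written 5' to 3' with the seed in capitals, 1 for each family.
miR-17-5p: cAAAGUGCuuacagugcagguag
miR-18a-5p: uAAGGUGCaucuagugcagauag
miR-19b-3p: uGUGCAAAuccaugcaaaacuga
miR-92a-3p: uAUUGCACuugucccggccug

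The sites searched on the transcript strand were GCACTTT for the miR-17 family, GCACCTT for miR-18, TTTGCAC for miR-19 and GTGCAAT for miR-92, in the longest 3' UTR of each gene annotated by GENCODE release M21. Initiation factor genes held few of them. A site of any family was present in 10 of the 51 members, 19.6%, against 34.2% of 11149 measured genes with an annotated 3' UTR. By family, 6 members had a miR-17 site (11.8% against 14.9%), 4 a miR-19 site (7.84% against 13.5%), 2 a miR-18 site (3.92% against 9.37%) and 1, Eif2ak4, a miR-92 site (1.96% against 7.67%). Members with a site had longer 3' UTRs, with a median of 3271 bases in these 10 and 639 bases in the 41 without. The sites of the genes with more than 1 are shown with their flanks, the site in capitals and its first base counted from the start of the 3' UTR.
Eif5b at 1225, miR-17: caaatttgGCACTTTtttgaaaa
Eif5b at 1306, miR-17: actatcatGCACTTTgcaaatac
Eif1ax at 1811, miR-19: ctcctcggTTTGCACactctgcc
Eif1ax at 3547, miR-19: cttggactTTTGCACactacctt
Eif4h at 510, miR-18: gaattgatGCACCTTggggtaga
Eif4h at 859, miR-19: agctgtgcTTTGCACtgagtctg
Eif4h at 956, miR-17: agagtctgGCACTTTctctgatc
Eif4e2 at 2389, miR-17: ttcgtgttGCACTTTgagaggat
Eif4e2 at 2519, miR-19: ggtctccaTTTGCACtccagact

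None of the 15 sites overlapped another. The 10 members with a site had log2 ratios from −0.20 to 0.13 with a median of 0.02, and the 41 without had a median of −0.10. Over all measured genes the medians were −0.01 with a site and −0.06 without. Eif4h, the member with sites of 3 families, was 1.13-fold lower in TKO, and Eif5b and Eif1ax, with 2 sites each of 1 family, had ratios of 1.02 and 1.10 whose intervals included equality. Eif3a, the member with the highest ratio, held none of the 4 sites in its annotated 3' UTR, nor did Eif4g1 or Eif4g3. The members with sites in the miR-17 family were Eif3j1, Eif4e2, Eif4g2, Eif4h, Eif5a2 and Eif5b, all within 1.13-fold of equality.

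Several initiation factor messages are known to start with a run of pyrimidines, the 5' terminal oligopyrimidine (TOP) element through which mTORC1 controls translation of ribosomal proteins. Of 7 members known for this element (Eif3a, Eif3e, Eif3f, Eif3h, Eif4b, Eif4a2 and Eif2s3x), 5 had log2 ratios below 0, where 57.4% of all measured genes were, with a median of −0.10. Their summed counts ran the other way, at 16748 and 17419, a ratio of 1.03 (1.01 to 1.06), and Eif3a alone had 1200 more counts in TKO. A run of at least 8 pyrimidines within 15 bases on either side of the annotated start, on the transcript strand, was found in 8 of 41 members in the RefSeq promoter table (GRCm38.p6), 19.5%. The share was 13.9% of all 27025 genes in that table and 45.8% of 59 ribosomal protein genes. Windows are shown for the members with the longest runs, 15 bases before to 15 bases from the start, with the run in capitals.
Eif2b5, chr16:20498802-20498831, plus strand: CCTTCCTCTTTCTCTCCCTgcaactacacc
Eif2s3x, chrX:94212637-94212666, minus strand: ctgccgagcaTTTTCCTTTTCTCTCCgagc
Eif3f, chr7:108934400-108934429, plus strand: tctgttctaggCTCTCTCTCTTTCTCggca
Eif3l, chr15:79075208-79075237, plus strand: gcgcggagTTCTTCTTCCgctctctcccac

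Such a run is not the same as a TOP element. Of the 5 known TOP members in the promoter table, Eif2s3x and Eif3f held a run and Eif3a, Eif4a2 and Eif4b did not. The run covered the start in 4 of the 8 members, those shown, lay wholly before it in Eif4e and Eif4enif1, and began after the first base in Eif2ak4 and Eif2b2. All 8 members with a run had log2 ratios below 0, with a median of −0.20, and stayed below 0 with TMM, DESeq2 size factors and FPKM. The others of the 8 were Eif2b2, Eif2ak4, Eif4e and Eif4enif1. Of the 33 members without a run, 18 were below 0, with a median of −0.01. Over all measured genes the presence of a run made little difference. Of 1406 genes with a run, 58.9% were below 0, with a median of −0.05. Of 7946 without, 57.4% were below 0, with a median of −0.04. The summed count of 80 ribosomal protein genes was 1.11-fold lower in TKO (1.11 to 1.12).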

How the data were processed

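Polyadenylated RNA was sequenced from 1 WT and 1 TKO library. The deposited table gives estimated counts per gene, FPKM made by the authors (0.01 stands for 0), the authors' log2 ratio, p-value and adjusted value, treated as a score because it reaches 1.04. The submitters' processing notes list HISAT2 2.0.4, Bowtie2 2.2.5, RSEM 1.2.12 and mm10 with no roles, and the annotation and the test are not given in the sources used here. Estimated counts were rounded. The entry without a symbol, 9.29e-06% of WT and 9.23e-06% of TKO counts, was left out. CPM used library totals. Intervals are exact Clopper-Pearson 95% intervals conditional on the summed count, cover counting error only, and treat PCR copies as molecules. Measured genes averaged 1 CPM or more. No p-value was computed. TMM came from edgeR 4.0.16 and size factors from DESeq2 1.42.0. All 53 members matched the RefSeq table (GRCm38.p6), 41 the promoter table. Absent from it were Eif1a, Eif2b3, Eif3e, Eif3h, Eif3i, Eif3j2, Eif4e1b, Eif4e3, Eif4ebp1, Eif4ebp3, Eif4g2 and Eif6. The longest run over a gene's starts was used. The intervals and calls were tested on simulated counts that varied by counting error alone, the error the intervals assume. That check does not cover variation between libraries. Members and lists were chosen with earlier results of these data known. Named genes were members called at 1.5-fold, the highest and lowest log2 ratio and the highest FPKM of each complex, near copies, and the farthest gene called at 1.2-fold in each direction of each list; the other members are given because every member was accounted for.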

Additional observations from a re-analysis of the deposited data

How the results depend on the processing

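The results above were recomputed under 10 other settings, plus leaving out Eif3j2, chosen after seeing the data. Of 124 values for 14 results, 115 stayed within 1.5 times (counts of genes), the counting interval (ratios) or an order-statistic interval over the genes (medians). The count of members at least 1.5-fold higher, 1 because of Eif3j2, was 0 at a mean of at least 10 CPM, without Eif3j2, and without the 8 genes of the pairs Eif3j1 and Eif3j2, Eif1 and Eif1b, Eif4a1 and Eif4a2, and Eif5a and Eif5a2, of which the Eif3j pair alone is near identical. The summed ratio was 1.03 with TMM, 1.02 with DESeq2 size factors and 0.971 with FPKM. With TMM the median log2 ratio was 0.0894 for the eIF4F group and 0.0772 for eIF5, eIF5A, eIF5B and eIF6. With DESeq2 size factors the latter was 0.0645. TMM and DESeq2 size factors raise the log2 of each CPM ratio by 0.0480 and 0.0352 before the pseudocount, by construction, and less for low genes after it; the cause of the FPKM value was not tested. The log2 ratios of 5 members, Eif2ak1, Eif3d, Eif3g, Eif3k and Eif4e2, change sign among these scalings. Pseudocounts do not enter fold calls or sums. Of the gene exons examined, 9 members share bases with another gene, and unstranded counting cannot tell these apart. No paired analysis was possible because each genotype had 1 library.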

Other observations

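Other genes whose products resemble or regulate initiation factors were read after their values were seen. Eif2ak2, the interferon-induced eIF2 kinase PKR, had 3686 and 3968 counts in WT and TKO, a ratio of 1.07 (1.02 to 1.12). Bzw1 and Bzw2 encode proteins that mimic part of eIF5. Bzw1 had 3065 and 3139 counts, a ratio of 1.02 (0.968 to 1.07), and Bzw2 had 177 and 131 counts, a TKO to WT ratio of 0.735 (0.582 to 0.927).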
